A study of Equus caballus with 15 samples.

Results

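The C/EBP transcription factors (CCAAT/enhancer binding proteins) are described here in equine macrophages activated with IL-1ß and treated with orthobiologic therapies (OTs). The genes were those whose symbol is CEBPA, CEBPB, CEBPD, CEBPE, CEBPG or CEBPZ, and all 6 were among the 16932 genes listed. They were chosen by the levels of CEBPD in untreated and IL-1ß treated macrophages, CEBPD being taken as the most stable IL-1ß induced gene. That contrast is therefore given as a description without a test.

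C/EBP proteins bind DNA as dimers through a basic region and a leucine zipper, and they pair with each other and with other bZIP factors such as those of the ATF family. In myeloid cells C/EBPα drives commitment to the lineage, C/EBPε drives late maturation of granulocytes, and C/EBPβ and C/EBPδ act on cytokine and acute phase genes during inflammation. CEBPD is an early response gene that is low in resting cells and induced by IL-1, IL-6 and glucocorticoids. C/EBPγ (CEBPG) lacks an activation domain and acts through its partners, which include ATF4. CEBPZ carries the family symbol although it encodes a CCAAT binding protein that is mainly nucleolar and takes part in ribosome biogenesis, and the bZIP protein once called C/EBPζ is CHOP, the product of DDIT3.

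RNA sequencing was performed on monocyte-derived macrophages grown for 5 days with M-CSF at 30 ng/ml from blood of 2 horses, geldings aged 3 and 5 years. Each of the 5 conditions had 3 libraries. Untreated macrophages received neither IL-1ß nor an OT, and the IL-1ß condition received 10 ng/ml IL-1ß alone. In the remaining conditions IL-1ß at that dose was given together with an OT that made up 25% of the medium. PRP lysate was prepared from plasma enriched in platelets and frozen. ACS, also called IRAP, was serum from blood incubated in a device made to raise its interleukin-1 receptor antagonist. MSC-CM was medium conditioned by cultured stromal cells of the bone marrow. Macrophages of all conditions were grown with M-CSF in medium with 10% fetal bovine serum, and no library received an OT without IL-1ß. The medium that became MSC-CM held 10% fetal bovine serum as well, so PRP lysate and ACS diluted the fetal serum of the culture, whereas MSC-CM was prepared with it. That share and the kind of OT cannot be told apart. Exposure lasted 24 h, after which the study's methods give a further 24 h of culture in fresh medium and the sample descriptions do not mention it. The OT libraries came from 3 donor horses of the products, aged 2, 5 and 5 years, whereas the IL-1ß and the untreated libraries were technical replicates of the macrophages. The p-values below accordingly measure the spread between these libraries, and the study's sources do not give how the 2 macrophage donors were divided over them.

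Levels are given in CPM, the reads of a gene scaled to the same total of reads counted on genes in every library, and the libraries held 28410734 to 47894071 such reads. A mean of 1 CPM or more over the 15 libraries was required, which left 11628 genes, and these were tested with limma on log2(CPM + 1), a scale that understates the changes of low genes. A gene was called changed at a Benjamini-Hochberg adjusted p of at most 0.05 and at least a 2-fold change. Replicate 3 of IL-1ß and replicate 1 of PRP lysate stood apart from the other libraries. Their scores on the first principal component were -103 and -51.7, against -20.7 to 26.6 elsewhere, and they had 25.3% and 22% of genes at 0, against 11.5% to 19.0%. Values without them are given for CEBPD. For other named genes they are given where leaving out such a library ended a call or turned a direction, here or at the end. Other shifts in size are given only in part. For example, CEBPZ with PRP lysate against IL-1ß moved from 0.36 to 0.10 without IL-1ß replicate 3.

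The labelled cell type was checked against its markers. All 7 macrophage markers were detected in all conditions, with a summed level of 2030 to 6400 CPM, although CD14 reached only 1.38 to 4.32 CPM. T cell markers summed to 505 to 1400 CPM and NK cell markers to 158 to 711 CPM, so RNA of lymphoid cells was present in every condition. B cell markers summed to 12 to 47.6 CPM, platelet markers to 3.31 to 41.1 CPM and stromal markers to 4.05 to 20.2 CPM. The sum of the neutrophil markers lay at 268 to 431 CPM in untreated, IL-1ß and MSC-CM libraries and at 486 to 759 CPM with PRP lysate or ACS. It rested on CSF3R, a receptor that macrophages also express, while MPO did not exceed 3.81 CPM, ELANE 0.383 CPM and LTF 0.726 CPM. In bulk RNA, fewer cells of a type and less RNA per cell cannot be told apart.

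CEBPD was high in macrophages treated with IL-1ß alone or with IL-1ß and MSC-CM, and low in untreated macrophages and with PRP lysate or ACS. Over the 3 OT conditions, whose levels the rule does not name, the highest mean of CEBPD was 6.30 times the lowest, compared to 2.61 times for CEBPE, 1.53 for CEBPA, 1.22 for CEBPZ, 1.18 for CEBPB and 1.17 for CEBPG. CEBPD encodes C/EBPδ, and its gene (ENSECAG00000039817) lies on chromosome 9 of EquCab3.0 from 36503384 to 36504206.

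**Figure D1:**
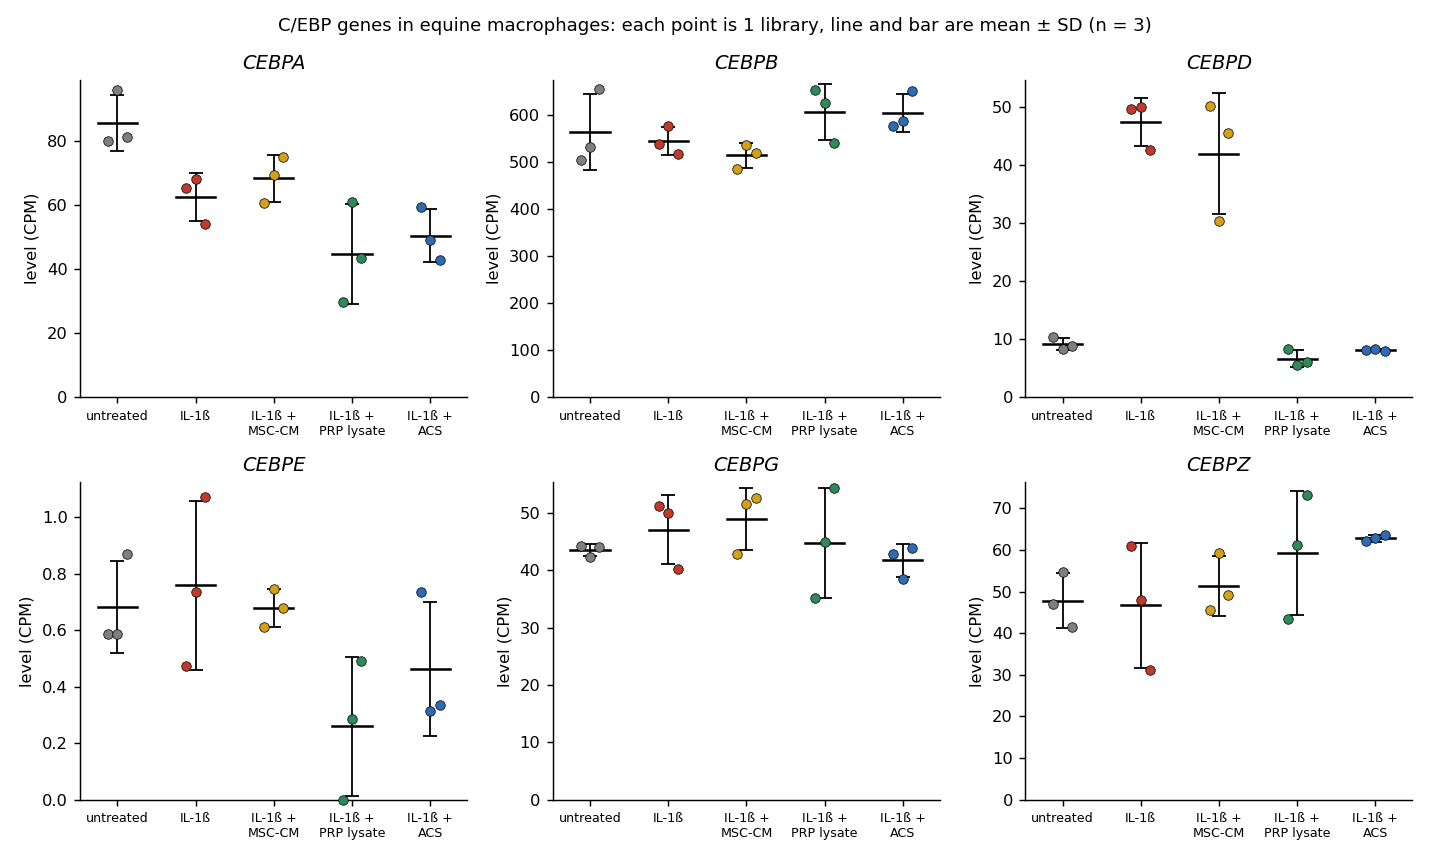
Level of each C/EBP gene in CPM (vertical axes, starting at 0) in the 5 conditions (horizontal axes). Each point is 1 library, and lines and bars are the mean ± SD of 3 libraries. CEBPD lies at 30.3 to 50.1 CPM with IL-1ß alone or with MSC-CM and at 5.59 to 10.3 CPM in the other conditions, while the libraries of CEBPB and CEBPG largely overlap between conditions.

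In untreated macrophages the 3 libraries held CEBPD at 10.3, 8.33 and 8.78 CPM (9.14 ± 1.04, SD, n = 3). With IL-1ß alone they held it at 49.7, 50.0 and 42.6 CPM (47.4 ± 4.19, SD, n = 3). The levels of these conditions lay apart, with a ratio of means of 5.19 and a log2 fold change of 2.26, which is the response that chose the gene. In that contrast the libraries did not overlap for 16.2% of all genes tested, and 0.292% of genes were called in either direction and 0.138% higher, which is given as the background of the contrast.

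With IL-1ß and MSC-CM the libraries held CEBPD at 50.1, 30.3 and 45.5 CPM (42 ± 10.4, SD, n = 3). With IL-1ß and PRP lysate it stood at 8.38, 5.59 and 6.02 CPM (6.67 ± 1.5, SD, n = 3). With IL-1ß and ACS it stood at 8.07, 8.40 and 8.02 CPM (8.16 ± 0.208, SD, n = 3). Of the MSC-CM libraries, replicate 3 lay in the range of IL-1ß alone, replicate 1 just above it and replicate 2 below it, and the ACS libraries lay in or just under the range of untreated macrophages. PRP lysate replicate 1, which stood apart in the data as a whole, lay in that range too, while replicates 2 and 3 lay below it. In order of the mean, the conditions ran from IL-1ß over MSC-CM, untreated and ACS to PRP lysate. The libraries of IL-1ß and MSC-CM overlapped, those of MSC-CM and untreated did not (as for 30.8% of all genes tested), and those of untreated and ACS and of ACS and PRP lysate overlapped. These levels rested on 171 to 2213 reads per library.

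No library of the contrast that chose CEBPD enters the differences between OTs, but the spread behind the tests was estimated over all 15 libraries and so includes it. CEBPD was lower with PRP lysate than with MSC-CM by a log2 fold change of -2.47 (SE 0.198, 95% interval -2.90 to -2.05), and it was called (limma, Benjamini-Hochberg adjusted p = 2.52e-05). The ratio of the means, MSC-CM over PRP lysate, was 6.30. It was also lower with ACS than with MSC-CM, by -2.20 (95% interval -2.63 to -1.77, limma adjusted p = 0.000293), with a ratio of means of 5.14. In both comparisons every library of MSC-CM lay above every library of the other OT. Of all genes tested, 2.61% were called in either direction, 1.81% were called lower and 19.4% had libraries that did not overlap between PRP lysate and MSC-CM. The corresponding shares between ACS and MSC-CM were 1.23%, 0.636% and 35.1%. Fitted on the 2 groups alone, without the libraries of that contrast, CEBPD was still called with PRP lysate (limma adjusted p = 0.0117) and with ACS (limma adjusted p = 0.000492). Of the 11628 genes, 26 fell further than CEBPD with PRP lysate and 8 with ACS. Between PRP lysate and ACS the difference was -0.27 (95% interval -0.70 to 0.15), which did not pass the test (limma adjusted p = 0.842), and the libraries overlapped. Without PRP lysate replicate 1 it was -0.43. In that comparison 0.0946% of all genes were called, 15.6% had libraries that did not overlap, and 603 genes, or 5.19%, had an unadjusted p of at most 0.05.

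The levels with IL-1ß alone entered the choice of CEBPD, so its differences from that condition are given as a description without a test. The log2 fold change was -2.67 with PRP lysate and -2.40 with ACS. The means of IL-1ß were 7.11 and 5.81 times those of PRP lysate and ACS, and the libraries lay apart in both. With PRP lysate 3.09% of all genes tested were called in either direction, 2.02% lower, and 15% had libraries that did not overlap. With ACS these shares were 2.21%, 0.98% and 26.2%. With MSC-CM the log2 fold change of CEBPD from IL-1ß was -0.20, and -0.27 without IL-1ß replicate 3. In that comparison limma called 0% of all genes, 8.79% had libraries that did not overlap, and 651 genes, or 5.6%, had an unadjusted p of at most 0.05. There edgeR called 0 genes and DESeq2 called 2. An equal level of CEBPD with IL-1ß alone and with MSC-CM was not shown.

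The calls of CEBPD against MSC-CM were kept without the libraries that stood apart. Without IL-1ß replicate 3 and PRP lysate replicate 1, the log2 fold change of PRP lysate was -2.90 against IL-1ß and -2.63 against MSC-CM, and that of ACS was -2.47 against IL-1ß and -2.20 against MSC-CM. Some macrophage markers moved in the same comparisons. Of the 7 markers tested, CD163 and AIF1 were called lower with PRP lysate against both IL-1ß and MSC-CM and with ACS against IL-1ß, CD163 alone with ACS against MSC-CM, and no T cell, B cell or NK cell marker was called in any comparison. The summed levels of lymphoid markers nevertheless differed between some conditions. T cell markers summed to 694 to 1370 CPM with IL-1ß, 974 to 1050 with MSC-CM, 635 to 1400 with PRP lysate, 606 to 782 with ACS and 505 to 741 untreated. B cell markers summed to 24.5 to 47.6, 22.2 to 29.8, 12 to 28.2, 13.4 to 19.3 and 15.5 to 22.7 CPM in the same order. MSC-CM libraries thus lay above ACS libraries in both sums, and NK cell markers overlapped between these conditions. The platelet marker PPBP, a chemokine gene, was called higher with PRP lysate than with MSC-CM, at 10.7 to 39.1 against 4.14 to 5.41 CPM. The part of these markers in the difference of CEBPD was not tested.

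CEBPB was the most abundant member and changed little. It encodes C/EBPβ, the C/EBP protein most closely tied to inflammatory cytokine genes in macrophages, and lies on chromosome 22 from 39182960 to 39184004 (ENSECAG00000027770). Untreated libraries held 505, 531 and 655 CPM (564 ± 80.2, SD, n = 3), and those with IL-1ß held 537, 577 and 518 CPM (544 ± 29.9, SD, n = 3). Libraries with MSC-CM held 485, 536 and 520 CPM (514 ± 25.7, SD, n = 3). With PRP lysate the levels were 654, 625 and 540 CPM (606 ± 59.0, SD, n = 3), and with ACS 576, 588 and 650 CPM (605 ± 40.1, SD, n = 3). All PRP lysate and ACS libraries lay above all MSC-CM libraries, while the other conditions overlapped. Libraries lay apart for 19.4% and 35.1% of all genes in these comparisons. The differences from MSC-CM were nevertheless small and did not pass the test, with a log2 fold change of 0.24 for PRP lysate (95% interval -0.02 to 0.50, limma adjusted p = 0.422) and 0.23 for ACS (95% interval -0.03 to 0.49, limma adjusted p = 0.430). The intervals of CEBPB stayed within a 2-fold change in all 6 comparisons tested.

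Because CEBPA, CEBPB and CEBPD have no introns, their levels could be set beside each other per kilobase of the gene model, which spans 1078, 1045 and 823 bases. How much of the untranslated regions these models hold was not examined. Per kilobase, CEBPB lay at 492 ± 24.6 CPM with MSC-CM and at 580 ± 56.5 CPM with PRP lysate (SD, n = 3), and CEBPD lay at 51.0 ± 12.6 and 8.10 ± 1.83 CPM. The ratio of CEBPB to CEBPD per kilobase was 8.52 to 9.58 with IL-1ß and 7.63 to 13.9 with MSC-CM. It was 38.5 to 58.8 in untreated macrophages, 61.4 to 88.1 with PRP lysate and 55.1 to 63.9 with ACS. The level of CEBPB therefore exceeded that of CEBPD in every library, and by the least where CEBPD was high. As a share of the sum of these 3 genes per kilobase, CEBPD made up 8.66% to 9.50% with IL-1ß, 6% to 10.5% with MSC-CM and at most 2.20% in the other conditions. CEBPB made up 79.9% to 94.3%.

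CEBPA, the gene of C/EBPα, was highest in untreated macrophages. It lies on chromosome 10 from 4566500 to 4567577 (ENSECAG00000032515). Untreated libraries held 79.9, 95.8 and 81.1 CPM (85.6 ± 8.84, SD, n = 3), those with IL-1ß 65.3, 68.1 and 54.1 CPM (62.5 ± 7.40, SD, n = 3), and those with MSC-CM 60.5, 69.4 and 75.1 CPM (68.3 ± 7.34, SD, n = 3). With PRP lysate the levels were 29.8, 60.8 and 43.4 CPM (44.7 ± 15.6, SD, n = 3), and with ACS 59.3, 49.1 and 42.8 CPM (50.4 ± 8.29, SD, n = 3). Every untreated library thus lay above every treated one, and untreated libraries lay apart from all others for 1.88% of all genes tested. Untreated and IL-1ß libraries, which belong to the contrast that chose the members, are a description here. Among the treated libraries the lowest value was that of PRP lysate replicate 1, which stood apart in the data as a whole. The order of the means ran from untreated over MSC-CM, IL-1ß and ACS to PRP lysate, and apart from untreated and MSC-CM all neighbours in this order overlapped.

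None of the differences of CEBPA passed the test. Its log2 fold change with PRP lysate was -0.65 against MSC-CM (95% interval -1.13 to -0.18, limma adjusted p = 0.137) and -0.53 against IL-1ß (95% interval -0.998 to -0.05, limma adjusted p = 0.224). Without PRP lysate replicate 1 these values were -0.40 and -0.27, and without PRP lysate replicate 2 the difference from MSC-CM was -0.90 (limma adjusted p = 0.0325), still under 2-fold. With ACS the difference from MSC-CM was -0.44 (95% interval -0.91 to 0.03, limma adjusted p = 0.412), and the libraries did not overlap, as for 35.1% of all genes tested. Over the 4 tested members other than CEBPD, 0 of 24 tests were called, beside 0% to 3.09% of all genes in these comparisons, so the count cannot be told from that background. The differences of CEBPA with PRP lysate were the only 2 with an unadjusted p of at most 0.05, as were those of 17.5% of all genes against IL-1ß and 14.5% against MSC-CM. Neither edgeR nor DESeq2 called a member other than CEBPD.

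**Figure D2:**
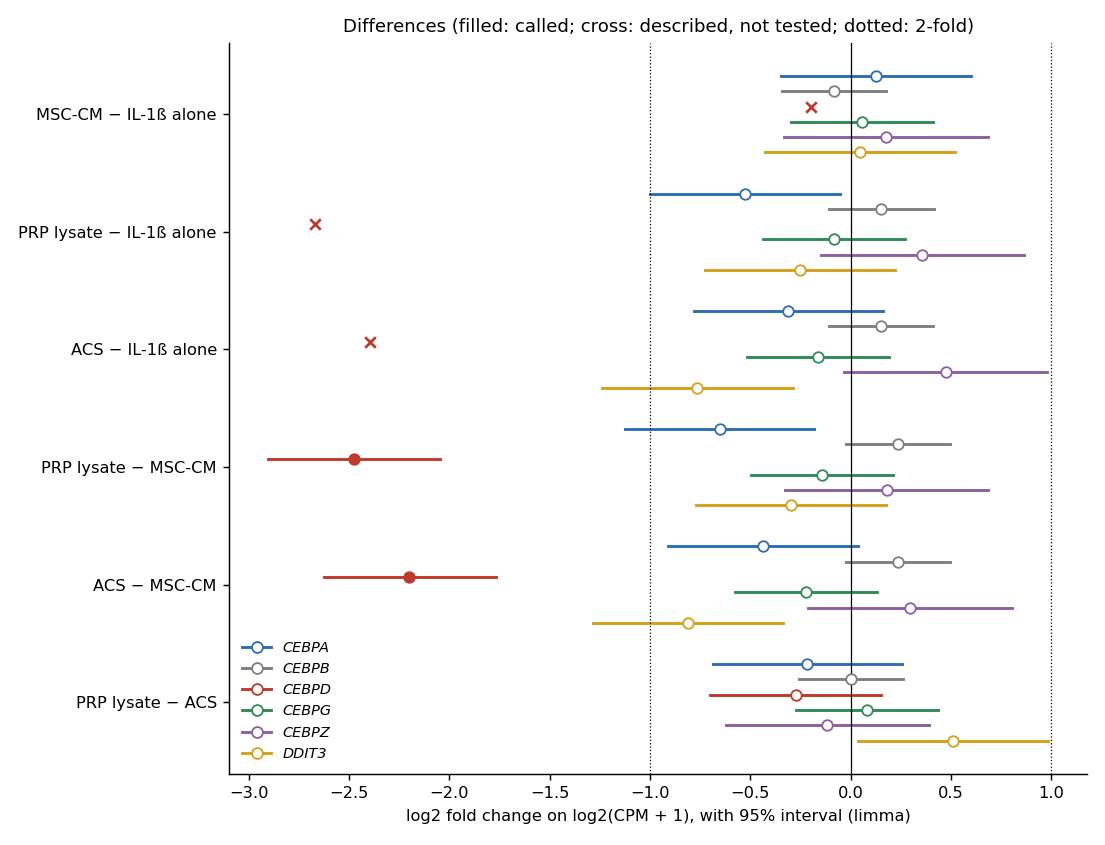
Log2 fold change on log2(CPM + 1) (horizontal axis), with its 95% interval from limma where tested, for 5 members and DDIT3 in 6 comparisons (vertical axis). Filled points are called changed, and dotted lines mark a 2-fold change. Crosses are the differences of CEBPD from IL-1ß alone, at -2.67, -2.40 and -0.20, which are described without a test. The filled points are those of CEBPD with PRP lysate and ACS against MSC-CM, at -2.47 and -2.20, and all open points lie between the dotted lines.

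CEBPG, the gene of C/EBPγ, is the neighbour of CEBPA on chromosome 10, from 4588730 to 4637354 (ENSECAG00000004879), with 21152 bases between them. Its levels were 44.3, 42.4 and 44.1 CPM in untreated libraries, 51.2, 50.0 and 40.2 CPM with IL-1ß, and 42.8, 51.6 and 52.7 CPM with MSC-CM. With PRP lysate they were 35.2, 45.0 and 54.4 CPM and with ACS 42.8, 38.6 and 44.0 CPM. The conditions overlapped, with means of 41.8 to 49.0 CPM, and the PRP lysate libraries alone spanned the whole range. No difference passed the test, the largest being -0.22 with ACS against MSC-CM (95% interval -0.58 to 0.13, limma adjusted p = 0.647). Across the 15 libraries the log2 levels of CEBPG and CEBPA had a Pearson correlation of 0.389, given as a description since libraries of a condition share their treatment.

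CEBPZ lies on chromosome 15 from 61455454 to 61480206 (ENSECAG00000018957). Its levels were 47.1, 54.8 and 41.6 CPM in untreated libraries, 61.0, 47.9 and 31.1 CPM with IL-1ß, and 45.5, 59.3 and 49.2 CPM with MSC-CM. They were 43.4, 61.1 and 73.1 CPM with PRP lysate and 62.0, 62.8 and 63.7 CPM with ACS. The ACS libraries were the tightest and lay above all libraries with IL-1ß alone or with MSC-CM, in comparisons where 26.2% and 35.1% of all genes had libraries that did not overlap, and IL-1ß replicate 3, which stood apart in the data as a whole, held the lowest value. The difference of ACS did not pass the test against IL-1ß (0.47, 95% interval -0.03 to 0.98, limma adjusted p = 0.259) or against MSC-CM (0.30, 95% interval -0.21 to 0.80, limma adjusted p = 0.680), and without IL-1ß replicate 3 the former was 0.21. CEBPZOS begins 40 bases beyond the end of CEBPZ, and NDUFAF7 ends 158 bases before its start. CEBPZOS had a mean of 8.73 CPM and neither gene was called in any comparison. Since the sources do not state whether reads were counted by strand, reads from overlapping transcripts at this locus cannot be told apart.

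CEBPE, whose product C/EBPε is typical of maturing granulocytes, was near the limit of detection. It lies on chromosome 1 from 163082382 to 163083842 (ENSECAG00000012883). With 0 to 31 reads per library its mean over all libraries was 0.569 CPM, so it did not enter the test. Its levels were 0.587, 0.589 and 0.872 CPM in untreated libraries, 0.473, 0.735 and 1.07 CPM with IL-1ß, and 0.611, 0.746 and 0.679 CPM with MSC-CM. They were 0, 0.287 and 0.493 CPM with PRP lysate and 0.736, 0.316 and 0.334 CPM with ACS. The count of 0 in PRP lysate replicate 1 allows a level of up to 0.0806 CPM, at 3 reads and for counting error only. PRP lysate held the lowest mean (0.260 ± 0.247 CPM, SD, n = 3), and its libraries lay below those of MSC-CM, beside the 19.4% of all genes tested whose libraries did not overlap. Without the filter on low levels CEBPE was not called by limma in any comparison, and edgeR and DESeq2 did not call it on recovered reads, with the smallest adjusted p at 0.151.

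DDIT3, whose product CHOP dimerizes with C/EBP proteins and blocks their binding to the usual site, was added as the family protein that the symbols leave out. It lies on chromosome 6 from 76026089 to 76026683 (ENSECAG00000020535). Its levels were 93.1, 92.8 and 139 CPM in untreated libraries, 76.5, 86.4 and 114 CPM with IL-1ß, and 89.9, 85.1 and 109 CPM with MSC-CM. They were 88.8, 70.9 and 70.5 CPM with PRP lysate and 40.2, 64.4 and 58.2 CPM with ACS. All ACS libraries lay below all others, and ACS libraries lay apart from all others, on either side, for 1.51% of all genes tested. The log2 fold change of ACS was -0.76 against IL-1ß (95% interval -1.24 to -0.29, limma adjusted p = 0.0797) and -0.81 against MSC-CM (95% interval -1.28 to -0.34, limma adjusted p = 0.0918), so DDIT3 was not called. DESeq2 gave the former an adjusted p of 0.0201, at less than a 2-fold change, and without IL-1ß replicate 3 its log2 fold change was -0.60. Fitted on ACS and MSC-CM alone, limma gave the latter an adjusted p of 0.0188, also at less than a 2-fold change.

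**Figure D3:**
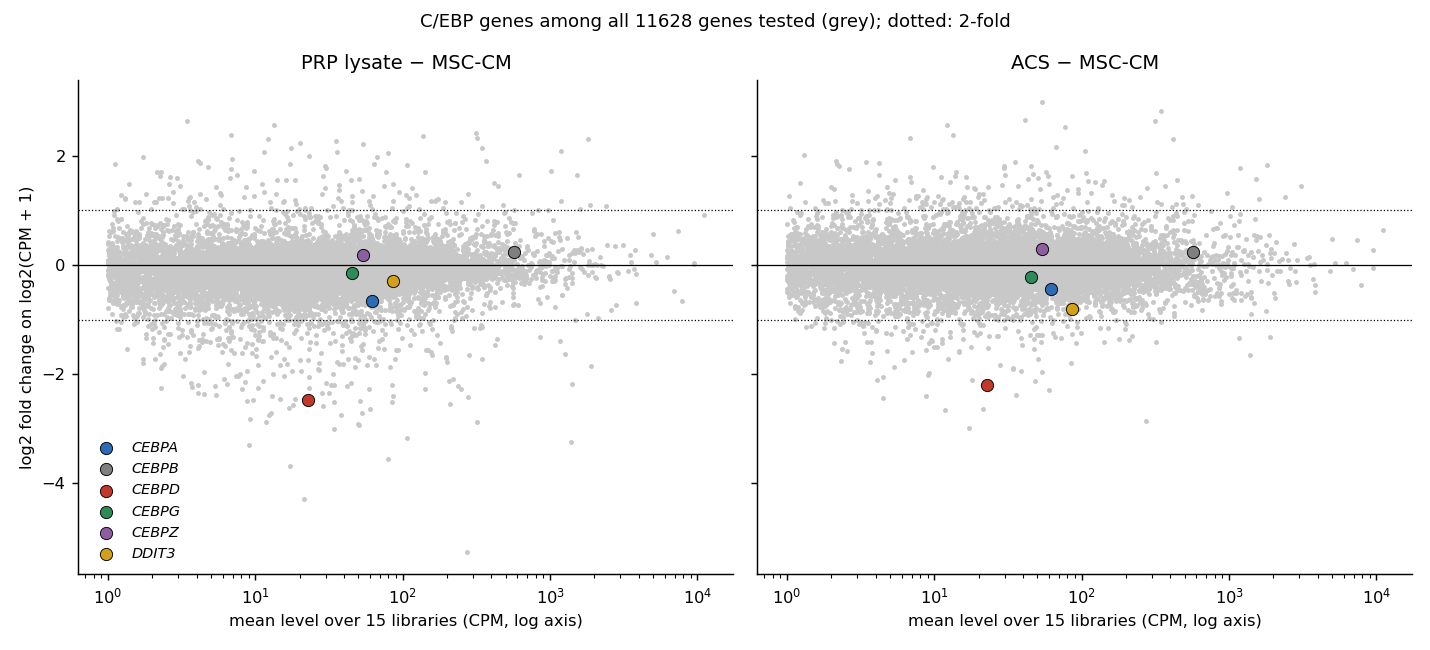
Log2 fold change on log2(CPM + 1) of PRP lysate (left) and ACS (right) against MSC-CM (vertical axes) by the mean level over 15 libraries in CPM (horizontal log axes), for all 11628 genes tested in grey and for 5 C/EBP genes and DDIT3 in color. Dotted lines mark a 2-fold change. CEBPD lies at -2.47 and -2.20, well below the dotted line, and the other colored genes lie within it.

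The nearest listed genes on either side of CEBPD did not share its fall. PRKDC, which encodes the catalytic subunit of DNA-dependent protein kinase, ends 423 bases before CEBPD. Its log2 fold change was -0.03 with PRP lysate and 0.35 with ACS against MSC-CM, and RIPK2 on the other side, 1819606 bases away, had -0.26 with PRP lysate. Neither was called in any of the 6 comparisons. The same held for PEPD beside CEBPG, for PEDS1 and PTPN1 beside CEBPB, and for SLC7A8 beside CEBPE.

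The 5 genes whose log2 levels followed CEBPD most closely over the 15 libraries were HERPUD1 (Pearson r = 0.959), DDIT4 (0.955), EIF2D (0.947), TRIB3 (0.944) and TSC22D3 (0.935). The libraries share their conditions and were all used for this choice, so the values are a description. DDIT4, which encodes an inhibitor of mTORC1, stood at 54.7 ± 5.15 CPM with IL-1ß and 46.7 ± 2.40 CPM with MSC-CM, against 11.2 ± 0.591 in untreated macrophages, 14.7 ± 3.47 with PRP lysate and 12.5 ± 2.58 with ACS (SD, n = 3). HERPUD1, whose product serves protein degradation at the endoplasmic reticulum, stood at 262 ± 62.6 and 291 ± 56.2 CPM with IL-1ß and MSC-CM, against 121 ± 6.98 CPM untreated, 112 ± 10.7 CPM with ACS and a range of 89.1 to 127 CPM with PRP lysate. For both genes the libraries of IL-1ß and MSC-CM lay above those of the remaining conditions, as for CEBPD. EIF2D, a translation initiation factor, and TSC22D3, the gene of the glucocorticoid-induced leucine zipper protein, had the same order of high and low conditions over a narrow range, with EIF2D at 26.8 ± 1.49 to 37.8 ± 0.830 CPM and TSC22D3 at 6.86 ± 0.271 to 12.2 ± 0.288 CPM. Among the members, CEBPD correlated at -0.571 with CEBPB, 0.262 with CEBPA and -0.420 with CEBPZ.

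**Figure D4:**
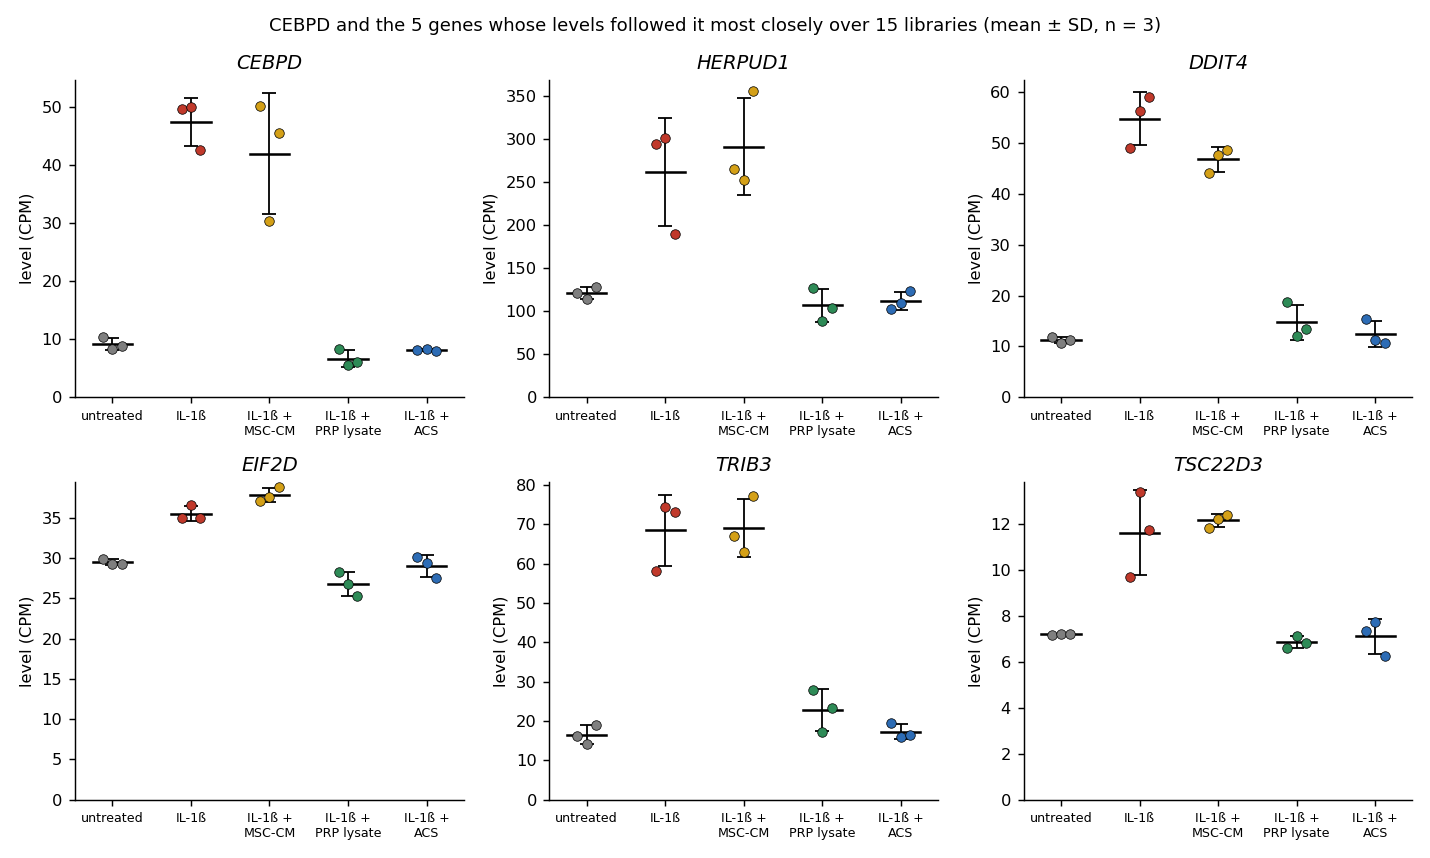
Level in CPM (vertical axes, starting at 0) of CEBPD and of the 5 genes most like it over 15 libraries, in 5 conditions (horizontal axes). Points are libraries, and lines and bars are the mean ± SD of 3 libraries. In each panel the libraries with IL-1ß alone or with MSC-CM lie above the others, by a wide margin for DDIT4 and TRIB3 and a narrow one for EIF2D.

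Known partners, regulators and targets of the C/EBP proteins were counted from lists. Of 15 bZIP partners and relatives tested, none was called in 5 of the comparisons, which is near the 0% to 3.09% of all genes called. The exception was ATF4, the stress-response factor that pairs with C/EBPγ, with ACS against IL-1ß. Its levels were 408 to 416 CPM with ACS and 619 to 1223 CPM with IL-1ß, and the log2 fold change was -1.02 (SE 0.242, limma adjusted p = 0.0365). That call was kept in only 1 of 6 fits that left out 1 library, being kept without IL-1ß replicate 1 and lost without any other. It was also lost with TMM or RLE factors and with the 2 groups fitted alone (limma adjusted p = 0.192), and without the 2 libraries that stood apart the value was -0.74. The median log2 fold change of the partners was 0.18 with PRP lysate and 0.34 with ACS against IL-1ß, beside 0.11 and 0.13 over all genes tested, and 0.09 and -0.04 against MSC-CM, beside -0.09 and -0.04.

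Among 27 genes that control C/EBP genes or proteins, from the IL-1 and IL-6 receptors over STAT3 and kinases to the Tribbles pseudokinases, TRIB3 alone was called. That is 1 of 27 genes, or 3.7%, in each of 4 comparisons, beside 3.09% and 2.21% of all genes with PRP lysate and ACS against IL-1ß and 2.61% and 1.23% against MSC-CM. TRIB3 is a stress-induced member of the Tribbles family, whose relatives TRIB1 and TRIB2 direct C/EBPα to degradation. Its levels were 58.1 to 74.4 CPM with IL-1ß, 63.0 to 77.3 CPM with MSC-CM, 17.2 to 27.9 CPM with PRP lysate, 15.9 to 19.5 CPM with ACS and 14.3 to 19.1 CPM in untreated macrophages. The PRP lysate and ACS libraries lay below all IL-1ß and MSC-CM libraries. TRIB3 fell against MSC-CM with a log2 fold change of -1.58 for PRP lysate (limma adjusted p = 0.00045) and -1.94 for ACS (limma adjusted p = 0.000293), and against IL-1ß of -1.56 and -1.93. Fitted on the 2 groups alone, the call for PRP lysate against IL-1ß was lost (limma adjusted p = 0.0744). The median log2 fold change of the list was -0.26 with PRP lysate and -0.06 with ACS against MSC-CM, beside -0.09 and -0.04 over all genes tested. Against IL-1ß the median was 0.13 with PRP lysate and 0.38 with ACS, beside 0.11 and 0.13 over all genes. JAK1, STAT3, SOCS3 and the receptor genes IL6R, IL6ST and IL1R1 were tested and not called in any comparison.

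Of 30 macrophage genes with C/EBP binding in their promoters, 25 were listed and 21 tested, and they moved in both directions. Against MSC-CM, 5 rose and 1 fell with PRP lysate, and 3 rose and 1 fell with ACS. Against IL-1ß, 2 rose and 4 fell with PRP lysate, and 2 rose and 2 fell with ACS. For comparison, 0.8% of all genes tested rose and 1.81% fell with PRP lysate against MSC-CM, 0.593% and 0.636% with ACS against MSC-CM, 1.07% and 2.02% with PRP lysate against IL-1ß, and 1.23% and 0.98% with ACS against IL-1ß. None of the list was called with MSC-CM against IL-1ß, and 1 was called lower with PRP lysate against ACS. The median log2 fold changes of the list with PRP lysate and ACS were -0.04 and -0.09 against MSC-CM, beside -0.09 and -0.04 over all genes tested, and -0.16 and -0.10 against IL-1ß, beside 0.11 and 0.13. With MSC-CM against IL-1ß the median was -0.26, beside 0.16 over all genes, and 6 of the 21 genes lay above 0. For PRP lysate against ACS it was -0.17, beside -0.04. CD163, the hemoglobin scavenger receptor, fell furthest, from 322 to 710 CPM with MSC-CM to 7.34 to 13.4 CPM with PRP lysate and 43.2 to 92.0 CPM with ACS, with log2 fold changes of -5.25 (limma adjusted p = 1.94e-05) and -2.86 (limma adjusted p = 0.00275).

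Cytokine and chemokine genes of that list differed among themselves. IL6, a classical target of C/EBPβ and C/EBPδ, stood at 40.4 to 59.8 CPM with IL-1ß, 19.0 to 23.6 CPM with MSC-CM, 1.96 to 13.9 CPM with PRP lysate and 6.01 to 17.5 CPM with ACS. It fell with PRP lysate against IL-1ß (log2 fold change -2.55, limma adjusted p = 0.0102), a value that was -1.80 without PRP lysate replicate 1 and a call that was lost with the 2 groups fitted alone (limma adjusted p = 0.22). TNF lay the other way, at 23.9 to 39.4 CPM with IL-1ß and 28.8 to 36.1 CPM with MSC-CM, against 112 to 140 CPM with PRP lysate and 76.8 to 81.5 CPM with ACS. It rose with PRP lysate by 1.99 against IL-1ß (limma adjusted p = 0.0008). CCL3, a chemokine that draws monocytes and T cells, stood at 528 to 846 CPM with MSC-CM, 3216 to 3489 CPM with PRP lysate and 2204 to 2628 CPM with ACS, and rose by 2.31 (limma adjusted p = 8.14e-05) and 1.82 (limma adjusted p = 0.00123). In untreated macrophages IL6 stood at 32.4 to 48.2 CPM, TNF at 34.1 to 83.6 CPM, CCL3 at 1307 to 2172 CPM and CD163 at 147 to 302 CPM. The part of CEBPD in the levels of these genes was not tested. The calls of IL6 and TNF with ACS against IL-1ß (-2.12, limma adjusted p = 0.0376, and 1.39, limma adjusted p = 0.0147), of CSF3 with PRP lysate (2.15, limma adjusted p = 0.0411) and CXCL8 with ACS (1.78, limma adjusted p = 0.0361) against MSC-CM, and of CD163 with PRP lysate against ACS (-2.39, limma adjusted p = 0.0347) were lost in 3 to 6 of the 6 fits that left out 1 library. With the 2 groups fitted alone all of these calls but that of CXCL8 were lost (limma adjusted p = 0.0636 to 0.15). Without IL-1ß replicate 3 the value of IL6 with ACS was -2.24 (limma adjusted p = 0.0627). Without PRP lysate replicate 1 the value of CSF3 was 2.90 and that of CD163 against ACS was -2.12 (limma adjusted p = 0.0934).

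**Figure D5:**
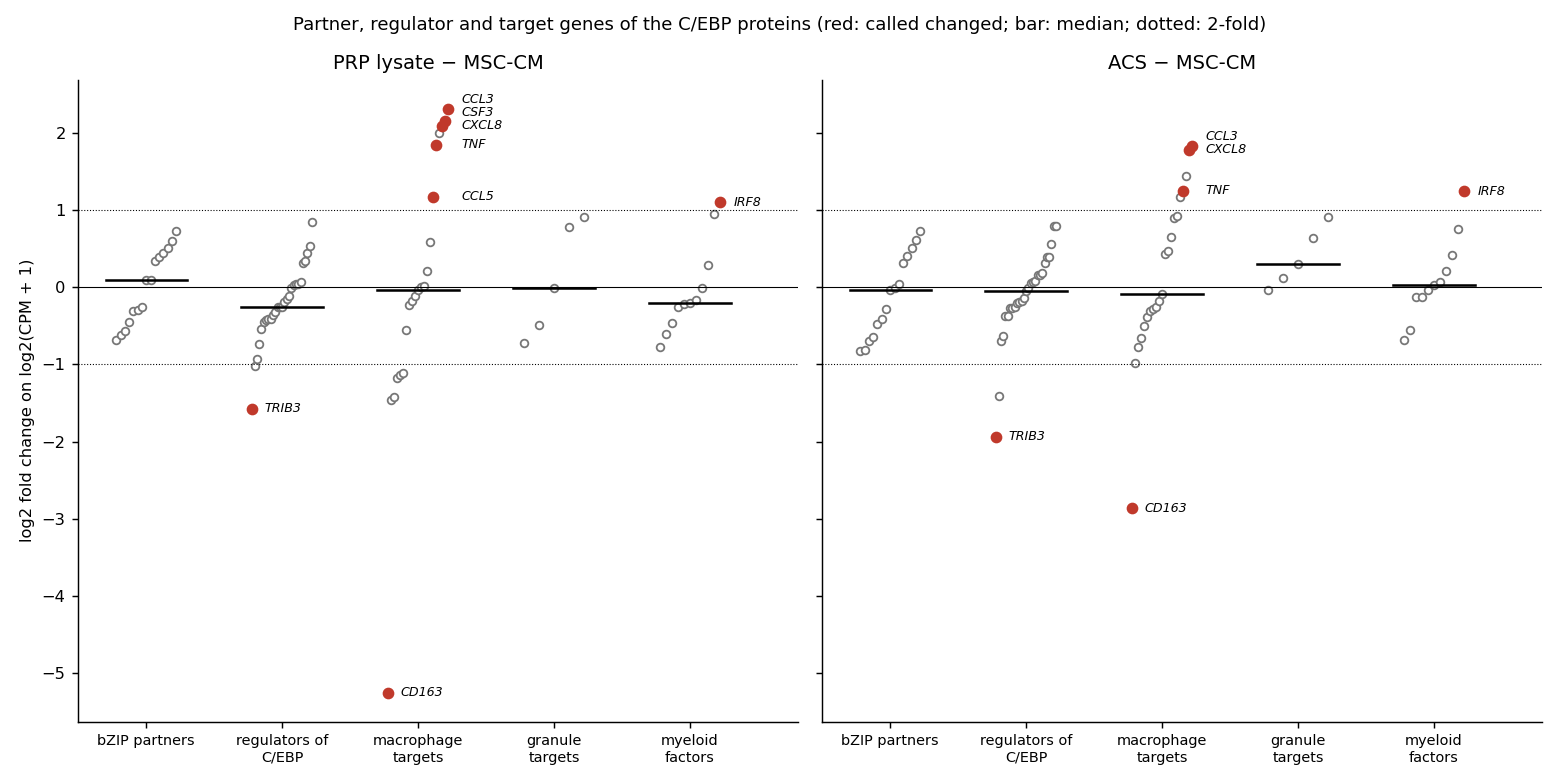
Log2 fold change on log2(CPM + 1) of PRP lysate (left) and ACS (right) against MSC-CM (vertical axes) for the tested genes of 5 lists (horizontal axes). Red points are called changed and named, bars are medians, and dotted lines mark a 2-fold change. TRIB3 at -1.58 and -1.94 is the only red point among the regulators, and the macrophage targets hold red points on both sides of 0.

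Granule genes that C/EBPα and C/EBPε drive in granulocytes gave few values. Of 14 such genes 9 were listed and 5 tested, and none passed the test, which with 5 genes cannot be told from the 0% to 3.09% of all genes called. Among 11 other myeloid transcription factors tested, IRF8 alone was called, in each of 4 comparisons. That is 1 of 11 genes, or 9.09%, beside 3.09% and 2.21% of all genes with PRP lysate and ACS against IL-1ß. Against MSC-CM the shares of all genes were 2.61% and 1.23%. IRF8, a factor of monocytes and dendritic cells, stood at 260 to 335 CPM with MSC-CM, 517 to 698 CPM with PRP lysate and 611 to 786 CPM with ACS, and rose by 1.10 (limma adjusted p = 0.00654) and 1.24 (limma adjusted p = 0.00635). With the replicate number as a block over 4 conditions the limma adjusted p for PRP lysate against MSC-CM was 0.0604 for IRF8 and 0.139 for CSF3. That block also joined untreated and IL-1ß libraries, technical replicates whose numbers stand for no product donor. With a block over PRP lysate and MSC-CM alone the limma adjusted p was 0.00693 for IRF8 and 0.0244 for CSF3. Against IL-1ß the log2 fold change of IRF8 was 1.22 with PRP lysate and 1.37 with ACS, and the former call was lost with the 2 groups fitted alone (limma adjusted p = 0.0902).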

How the data were processed

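RNA of all 15 libraries was enriched for polyadenylated transcripts and sequenced as 150 base paired reads. The authors trimmed reads at a Phred score of 20 and removed adapters with cutadapt in Partek Flow, used STAR 2.7.3 for alignment against the EquCab3.0 build, and obtained gene counts from HTSeq with Ensembl release 107. They deposited CPM per gene for single libraries, with symbols and positions. The strand setting is not given in the sources used here. The sample descriptions named all 15 columns.

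Members and gene lists were chosen with earlier results of these data known, and counts over the lists are descriptions. With limma 3.58.1 (intensity trend, 5 conditions, no block) log2(CPM + 1) was modeled for genes averaging 1 CPM or more, with Benjamini-Hochberg adjustment within each comparison. Named were all 6 members, DDIT3, at most 3 called genes per list and comparison with the largest change, and the genes that correlated best with each member (5 for CEBPD, 3 for others). In the network plot every called gene is named. Whole reads were recovered by dividing by the smallest step of each library, and 99.7% of values were whole within 0.1. Intervals cover 95%.

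Alternatives were TMM and RLE factors, a pseudocount of 0.1, no filter, no fold threshold, edgeR 4.0.16 and DESeq2 1.42.0 on recovered reads, only the groups compared, a replicate block, and leaving out each library. Deviations from the means of the conditions correlated at 0.635, 0.255 and 0.419 in same-numbered libraries of PRP lysate and MSC-CM. The numbers of these conditions were taken as paired. Over all 18 same-numbered pairs the values ran from -0.775 to 0.635, and 11 exceeded 0.1. Replicate 2 of untreated macrophages and of PRP lysate, which share no product donor, had 0.59. Libraries with different numbers were not compared, so these values cannot show that the numbers are paired. Scripts ran in R 4.3.3 and Python 3.11.15 and were tested on simulated data. Reference sequences were not used here, and 1 gene of the lists is not reported.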

Additional observations from a re-analysis of the deposited data

How the results depend on the processing

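The number of members called kept its value under every alternative in all 6 comparisons, 94 values in all, of which those against IL-1ß are not independent of the choice of CEBPD. CEBPD kept its calls against MSC-CM throughout, with log2 fold changes of -2.69 to -2.33 (PRP lysate) and -2.41 to -2.06 (ACS). Against IL-1ß, as a description, it ranged over -2.91 to -2.57 and -2.66 to -2.36. With the replicate block CEBPD was at -2.67 with PRP lysate against IL-1ß and -2.47 (limma adjusted p = 0.00105) against MSC-CM, where the block with PRP lysate and MSC-CM alone gave 0.000585. The block changed no call of a member, and ACS titles carry no number, so the comparisons of ACS had no block.

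Of 440 log2 fold changes of members under alternatives, 413 kept their direction and 27 turned, all of differences that were not called. TMM factors moved the median of all genes with MSC-CM against IL-1ß from 0.16 to 0.03. In that comparison TMM factors, RLE factors, edgeR and DESeq2 gave CEBPA -0.01, -0.05, -0.00074 and -0.04, CEBPG -0.08, -0.12, -0.07 and -0.12, and DDIT3 -0.10, -0.13, -0.13 and -0.18, and DESeq2 gave CEBPZ -0.01. Leaving out 1 library gave CEBPD -0.34 to 0.01, CEBPG -0.05 to 0.15, CEBPZ -0.08 to 0.39 and DDIT3 -0.08 to 0.21. With PRP lysate it gave CEBPG -0.23 to 0.08 against IL-1ß and -0.29 to 0.02 against MSC-CM. For PRP lysate against ACS it gave CEBPD -0.43 to -0.18, CEBPA -0.46 to 0.04, CEBPB -0.05 to 0.08, CEBPG -0.07 to 0.24 and CEBPZ -0.28 to 0.09. Without both libraries that stood apart, an alternative chosen after seeing the data, CEBPG was at -0.05 and CEBPZ at -0.08 with MSC-CM against IL-1ß, CEBPG at 0.02 with PRP lysate against MSC-CM, and CEBPA at 0.04, CEBPB at -0.05 and CEBPZ at 0.09 with PRP lysate against ACS. The cause was not tested.

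Of 411 values of DDIT3 and the named partner, regulator and target genes, 48 lost their call, 29 of them when 1 library was left out and 8 when only the groups compared were fitted. CEBPE alone among the members, at 0 to 31 reads per library, did not pass the filter on low levels.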

Other observations

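The genes whose log2 levels followed the other members most closely over the 15 libraries are given as a description. For CEBPA they were DAB2 (Pearson r = 0.932), an adaptor of endocytosis, NPL (0.930) and LAMP1 (0.928), a membrane protein of lysosomes, all with their highest mean in untreated macrophages and their lowest with PRP lysate. LAMP1 stood at 1430 ± 186 CPM untreated and 703 ± 247 CPM with PRP lysate (SD, n = 3). For CEBPB they were IER3 (0.897), HR (0.888) and IL36G (0.876), with their highest means with ACS. For CEBPG they were UST (0.864), SP110 (0.862) and GPR146 (0.839). For CEBPZ they were MDN1 (0.975), a factor of ribosome assembly, RAD50 (0.970), a protein of DNA break repair, and HAVCR2 (0.969). The levels of MDN1 varied among the libraries with IL-1ß alone (40.0 ± 25.0 CPM, SD, n = 3) more widely than the means of the conditions (36.2 to 57.1 CPM).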
